A study of Mus musculus with 48 samples.

Results

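Fatty acid oxidation genes and targets of the nuclear receptor PPAR alpha were followed in mouse kidney across genotype, phosphate diet and sex. The list held 33 genes grouped by function. Of these, 31 had a probe set of their own, and Acsl1 and Ucp2 are not analysed here. For each gene the brightest probe set by mean log2 signal was used, and all 31 passed the filter on dim probe sets. The 31 genes are part of 12833 named genes and 18633 features tested in all.

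Fatty acids enter cells through carriers such as CD36 and the SLC27 proteins and are coupled to coenzyme A. The carnitine shuttle then takes long-chain acyl groups into mitochondria, where beta oxidation shortens them and passes electrons on through electron transfer flavoprotein. Peroxisomes handle very-long-chain, branched and bile acid side chains. PPAR alpha, encoded by Ppara, is activated by fatty acids and raises transcription of many of these genes in fasting. The renal proximal tubule, which also reclaims phosphate, draws much of its energy from fatty acid oxidation.

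The kidneys of 72 mice gave 24 RNA pools, each from 3 mice, and every pool was hybridised to the Affymetrix mouse 430A and 430B arrays. There were 8 groups of 3 pools. Normal littermates were compared with mice carrying the Hyp mutation of the X-linked gene Phex, a model of X-linked hypophosphatemia. Hyp males were Hyp/Y hemizygotes and Hyp females were Hyp/+ heterozygotes. Mice were 10 weeks old when they received either the control diet (Teklad TD 86129) or the low phosphorus diet (Teklad TD 86128), for 3 days and with deionized water. C57BL/6J is named as the strain in the label of 1 sample. Pooling averages over animals, so the p-values refer to pools and not to single mice. Values are deposited signal intensity on a linear scale, and differences are log2 differences ± standard error from limma. The words rose and fell are kept for genes with an adjusted p below 0.05, adjusted over the 18633 features. The contrasts of diet, genotype and sex use the same 24 pools.

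All 7 markers of kidney tubule were measured, and their summed signal lay between 62223 and 77514 in every pool. Of the defining markers of other tissues, Ucp1, Lep and Plin1 had no feature tested here. The white fat markers Adipoq and Retn were measured, with a summed signal of 322 to 603 in males and 465.5 to 823 in females. Median array signal ran from 164.6 to 211.2 on the 430A chip and from 50.9 to 68.3 on the 430B chip. Between pools of the same group, r across features was 0.924 to 0.947 (features are not independent replicates). With arrays there is no read depth to quote, and precision is limited by the number of arrays.

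The low phosphate diet addressed the first question of the design, the response to 3 days of phosphate restriction. Of the 31 genes, 5 rose and 1 fell, which is 19.4%, against 0.767% of all features (0.408% higher and 0.36% lower). The list was chosen with earlier results of these data known. This share, and those for genotype and sex below, thus describe the list and are not a test of the pathway. The genes that rose were the peroxisomal enzymes Hacl1 and Acox2, the thioesterase Acot1, the lipoprotein lipase inhibitor Angptl4 and the fatty acid carrier Slc27a1. The gene that fell was Ppara itself. The log2 difference was positive for 26 of 31 genes, with a median of 0.08, against 9559 of 18633 features and a median of 0.00 for all features. By the brightest probe sets, none of the 10 mitochondrial beta oxidation genes passed limma's test for diet. None of these probe sets had an unadjusted p below 0.05. Dimmer probe sets of these genes were not called either, and ran from -0.14 for Hadh to 0.54 for Hadhb. The smallest adjusted p among them was 0.377 in a fit of all probe sets, for Decr1 at 0.22 ± 0.07. In whole kidney RNA, a change in the number of cells of a type and a change in RNA per cell cannot be told apart.

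**Figure D1:**
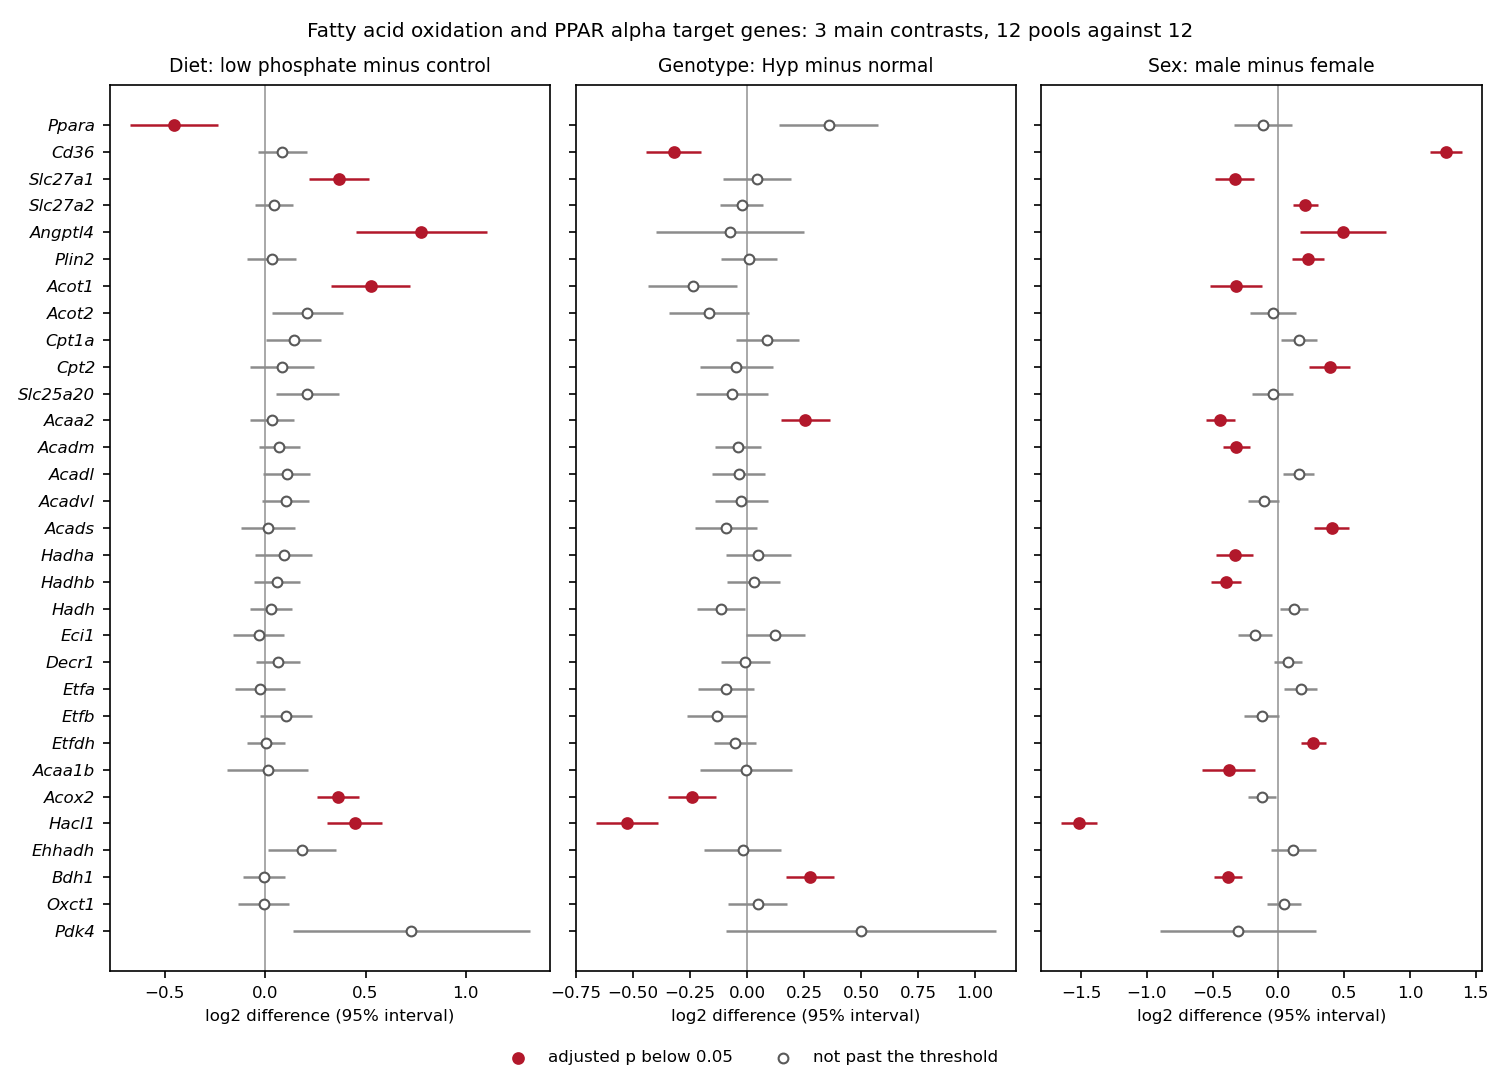
Log2 differences of the 31 measured genes for diet, genotype and sex, each over 12 pools against 12, ordered by role from the receptor Ppara to Pdk4. Points are estimates, bars are 95% intervals, and filled red points had an adjusted p below 0.05. The diet panel has 6 filled points, the genotype panel 5 and the sex panel 16.

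Hacl1 encodes 2-hydroxyacyl-CoA lyase, a peroxisomal enzyme that cleaves 2-hydroxy fatty acids, and Acox2 encodes the peroxisomal oxidase of branched chains and bile acid intermediates. Both changed with diet and with genotype, and Cd36 changed with genotype and sex, so the promoter windows of these 3 genes are shown. Each runs from 250 bases before to 50 bases after an annotated start, read 5′ to 3′ along the gene, from RefSeq on build GRCm38.p6. All 3 genes lie on the minus strand, with windows at chr14:8258970-8259269 and chr14:8258790-8259089 for Acox2, chr14:31640916-31641215 for Hacl1 and chr5:17835847-17836146 for Cd36. The Cd36 window is at a start within the annotated gene, whose 5′ end lies at position 17888959, and no window at that end is shown. Capitals mark a match to the direct repeat that PPAR alpha and its partner RXR bind.
Acox2, at the 5′ end of the annotated gene: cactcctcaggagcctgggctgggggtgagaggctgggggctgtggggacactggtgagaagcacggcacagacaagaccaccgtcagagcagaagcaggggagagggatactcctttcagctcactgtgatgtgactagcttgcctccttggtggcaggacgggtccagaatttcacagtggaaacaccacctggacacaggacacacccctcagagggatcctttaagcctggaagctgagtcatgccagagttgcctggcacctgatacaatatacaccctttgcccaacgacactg
Acox2, at a start within the annotated gene: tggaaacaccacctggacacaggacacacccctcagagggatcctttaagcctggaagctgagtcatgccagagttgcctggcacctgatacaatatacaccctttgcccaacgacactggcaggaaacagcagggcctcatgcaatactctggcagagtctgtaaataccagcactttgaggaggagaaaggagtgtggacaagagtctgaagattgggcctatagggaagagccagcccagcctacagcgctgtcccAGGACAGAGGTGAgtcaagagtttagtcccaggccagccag
Hacl1: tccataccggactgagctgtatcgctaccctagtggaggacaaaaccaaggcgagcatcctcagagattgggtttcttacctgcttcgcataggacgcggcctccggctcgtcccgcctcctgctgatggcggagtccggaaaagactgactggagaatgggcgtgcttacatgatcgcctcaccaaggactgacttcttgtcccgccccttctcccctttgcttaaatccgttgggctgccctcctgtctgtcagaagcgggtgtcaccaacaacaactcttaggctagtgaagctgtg
Cd36: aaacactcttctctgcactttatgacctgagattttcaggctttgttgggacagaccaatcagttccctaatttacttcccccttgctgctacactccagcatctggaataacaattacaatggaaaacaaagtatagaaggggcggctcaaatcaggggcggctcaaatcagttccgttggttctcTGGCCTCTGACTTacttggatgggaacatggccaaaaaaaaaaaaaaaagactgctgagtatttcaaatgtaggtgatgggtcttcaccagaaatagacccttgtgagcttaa
The motif searched was AGGTCANAGGTCA on both strands, with up to 2 mismatches in its 12 fixed letters. The Acox2 match, AGGACAGAGGTGA, is in the window of the start within the gene, and the window at its 5′ end held none. It lies on the strand of the gene at positions 9 to 21 counted from the start as 0, and the Cd36 match, AAGTCAGAGGCCA, lies on the opposite strand at positions -63 to -51. The Hacl1 window held no such match, and no match says only that these letters are not in the window. Matches were found in 5 of 32 windows of the measured members (15.6%), against 3.86% of all 32851 windows of that length. The other 3 were AGGTCAGGGGTCC in Plin2, AGGTGAAAGGTCG in Slc25a20 and AGGGCAAAGGTAA in Etfa. No window was in the table for Acaa2, Angptl4 and Decr1. The matches are descriptions of sequence. Among the 5 genes with a match in any window, Acox2 alone was called for diet.

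Hacl1 in normal males read 680.2, 578 and 700.5 on the control diet and 1011, 1125 and 950.3 on low phosphate. Hacl1 in normal females read 2044, 2053 and 2178 and 2962, 3621 and 3040.1 in the same order. In both sexes of normal mice, every low phosphate pool was above every control pool. Hacl1 in Hyp males read 507, 635 and 596 on control and 607, 730.0 and 723 on low phosphate. Hacl1 in Hyp females read 1221, 1526 and 1722 and 1718, 1702 and 1906. The Hyp pools of the 2 diets overlapped in each sex. Over both genotypes and sexes, Hacl1 rose by 0.45 ± 0.07, or 1.36-fold (adjusted p = 0.000803).

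Acox2 in normal males was 1174, 1023 and 1210.3 on the control diet and 1714, 1769 and 1523 on low phosphate. Acox2 in normal females was 1389.5, 1341 and 1480.2 on control and 1666, 1563 and 1724 on low phosphate. Within each sex of normal mice the diets did not overlap. Acox2 in Hyp males was 1063, 1048 and 1086 on control and 1298, 1436 and 1187 on low phosphate. Acox2 in Hyp females was 1016, 1220.4 and 1118 and 1429, 1388 and 1526. The diets were also separate within each sex of Hyp mice, so low phosphate pools were above control pools in all 4 combinations of genotype and sex. Acox2 rose by 0.36 ± 0.05, or 1.29-fold, with the smallest adjusted p of the 31 genes for diet (0.0004).

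Acot1 encodes a cytosolic acyl-CoA thioesterase, which frees fatty acids from coenzyme A. Acot1 in normal males was 441, 503 and 513 on the control diet and 851, 1000.4 and 816 on low phosphate. Acot1 in normal females was 732, 519 and 676 and 793, 952 and 1267. The normal pools of the 2 diets were separate in both sexes. Acot1 in Hyp males was 414, 584 and 512 on control and 590.3, 459 and 712 on low phosphate, which overlapped. Acot1 in Hyp females was 630.5, 517 and 684 and 838, 694 and 860.3, which did not. Acot1 rose by 0.53 ± 0.09, or 1.44-fold (adjusted p = 0.0053). Its mitochondrial paralog Acot2 differed by 0.21 ± 0.08 and was not called (adjusted p = 0.404). Another, dimmer probe set of Acot2 differed by -0.01 (adjusted p = 0.996 in a fit of all probe sets). A probe set that the annotation assigns to both genes differed by 0.42, with an adjusted p of 0.0258 in a fit of all probe sets. The 2 genes are closely similar in sequence, and cross-hybridisation between their probe sets was not tested.

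Angptl4 encodes a secreted inhibitor of lipoprotein lipase, and is a classical PPAR target. Angptl4 in normal males was 735, 435 and 761 on the control diet and 973, 1279.8 and 1223 on low phosphate. Angptl4 in normal females was 358, 392 and 458 and 792, 897 and 1381. Normal pools were separate by diet in both sexes. Angptl4 in Hyp males was 696, 757 and 886 on control and 903, 960.2 and 883 on low phosphate. Angptl4 in Hyp females was 231, 722 and 552 and 522, 865 and 839. Hyp pools overlapped in both sexes, and 1 Hyp female control pool, at 231, was the lowest of all 24. Angptl4 rose by 0.78 ± 0.16, or 1.71-fold, the largest diet difference of the 31 genes (adjusted p = 0.0154).

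Slc27a1 encodes FATP1, a fatty acid carrier with acyl-CoA synthetase activity. Slc27a1 in normal males was 246, 288 and 305 on the control diet and 370.0, 345 and 424 on low phosphate. Slc27a1 in normal females was 372, 458 and 408 and 564, 552 and 547. Both sexes of normal mice were separate by diet. Slc27a1 in Hyp males was 426, 384 and 300.1 on control and 411, 451 and 387 on low phosphate, with overlap. Slc27a1 in Hyp females was 301, 422 and 382 and 511, 437 and 515, without overlap. Slc27a1 rose by 0.37 ± 0.07, or 1.29-fold (adjusted p = 0.0107). The other carriers were not called for diet, with 0.09 ± 0.06 for Cd36 (adjusted p = 0.741) and 0.04 ± 0.05 for Slc27a2 (adjusted p = 0.858).

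Ppara, the gene of the receptor, moved with diet in the direction opposite to the 5 genes above. Ppara in normal males was 1422, 1192 and 1292 on the control diet and 1142, 622 and 718 on low phosphate, without overlap. Ppara in normal females was 1517, 1096 and 1487 and 1245, 788 and 808, with overlap. In both sexes of normal mice, 2 low phosphate pools were far below the third. Ppara in Hyp males was 1708, 1498 and 1209 on control and 1339, 1172 and 1084 on low phosphate. Ppara in Hyp females was 1406, 1805 and 1514 and 1432, 1329 and 1109. Hyp pools overlapped between diets in both sexes, and in all 4 low phosphate groups the highest pool was the one numbered 1 in the labels. Ppara fell by 0.46 ± 0.11, or 1.37-fold (adjusted p = 0.0441). The call was lost without any 1 of 20 of the 24 pools (highest adjusted p = 0.0955), all but Hyp male control pool 3, normal female control pool 2 and low phosphate pool 1 of each sex of normal mice, and without the filter (adjusted p = 0.114). The other probe sets of Ppara differed by -0.41 and -0.37, with adjusted p-values of 0.116 and 0.166 in a fit of all probe sets. In that same fit the chosen probe set had an adjusted p of 0.139, so the probe sets of Ppara were alike.

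**Figure D2:**
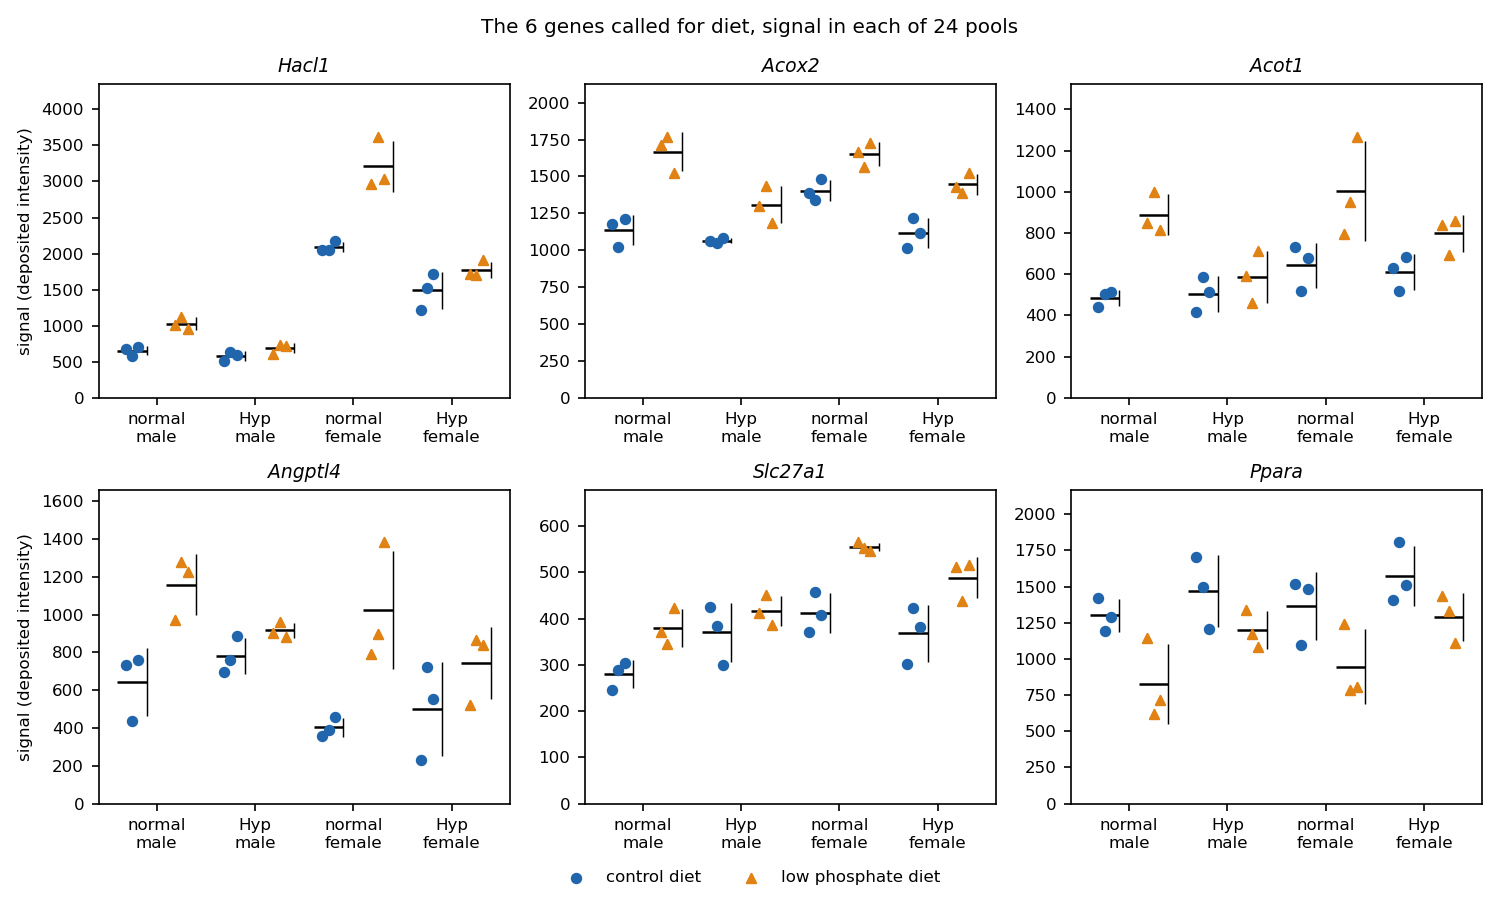
Deposited signal (linear axis from 0) of the 6 genes called for diet in each of 24 pools, by genotype and sex, with circles for the control diet and triangles for low phosphate. Horizontal lines are means and vertical lines are SDs of 3 pools. Acox2 is separate by diet in all 4 combinations, while Hacl1, Acot1, Angptl4 and Slc27a1 are separate in both sexes of normal mice.

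The carnitine shuttle genes were not called for diet. Cpt1a, the rate-controlling transferase of the outer membrane, differed by 0.14 ± 0.07 (adjusted p = 0.507). The inner membrane transferase Cpt2 differed by 0.08 ± 0.08 (adjusted p = 0.821), and the carnitine-acylcarnitine carrier Slc25a20 by 0.21 ± 0.08 (adjusted p = 0.321). The 10 mitochondrial beta oxidation genes lay between -0.03 for Eci1 and 0.11 for Acadl, with a median of 0.06. Among the dehydrogenases, each named for its chain length, the intervals ran from -0.03 to 0.17 for Acadm and -0.02 to 0.22 for Acadvl to -0.12 to 0.15 for Acads. The trifunctional protein genes Hadha and Hadhb had intervals of -0.05 to 0.23 and -0.06 to 0.17. The rise of Acox2 was above the upper end of these 5 intervals.

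Electron transfer genes differed by -0.03 ± 0.06 for Etfa, 0.10 ± 0.06 for Etfb and 0.00 ± 0.04 for Etfdh, none called. Ehhadh, the peroxisomal bifunctional enzyme, differed by 0.18 ± 0.08 (adjusted p = 0.483), and the peroxisomal thiolase Acaa1b by 0.01 ± 0.10 (adjusted p = 0.986). So 2 of 4 peroxisomal genes rose and 2 were not called. The ketone genes Bdh1 and Oxct1, which interconvert ketone bodies and use them, both differed by -0.01 (adjusted p = 0.985 and 0.986). The lipid droplet coat gene Plin2 differed by 0.03 ± 0.06 (adjusted p = 0.936).

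Pdk4 encodes the kinase that shuts off pyruvate dehydrogenase when fatty acids are burned. Its diet difference, 0.73 ± 0.28, was almost as large as that of Angptl4, but the standard error was wider and it was not called (adjusted p = 0.384). Over the 12 control pools the lowest, median and highest Pdk4 signals were 82.6, 249 and 654, and over the 12 low phosphate pools they were 253, 396 and 1134. Its 95% interval for diet was 0.14 to 1.32. Pools of 1 group differed among themselves, as in normal females on low phosphate, at 369, 365 and 1134.

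Whether Pdk4 and other fasting-responsive genes varied together among pools of a group was tested for 6 pairs of genes after subtraction of group means. Pdk4 and Acot1 correlated across the 24 pools, with r = 0.62 (permutation p = 0.0042, adjusted over 6 pairs 0.0252) and Spearman rho = 0.67 (permutation p = 0.00226, adjusted 0.0136). Without the 2 pools farthest from the median of Pdk4, r was 0.50, and the adjusted permutation p was 0.184. The call was thus lost, with fewer pools left to permute. With the mean of each series number of the labels also subtracted, r was 0.57 and the adjusted permutation p was 0.223. Pdk4 and Angptl4 had r = 0.49 (permutation p = 0.0772, adjusted 0.232) and rho = 0.52 (permutation p = 0.0498, adjusted 0.149). The other 4 pairs had r between -0.32 and 0.03, none past the threshold. The tests were two-sided and permuted pools within groups 100000 times.

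**Figure D3:**
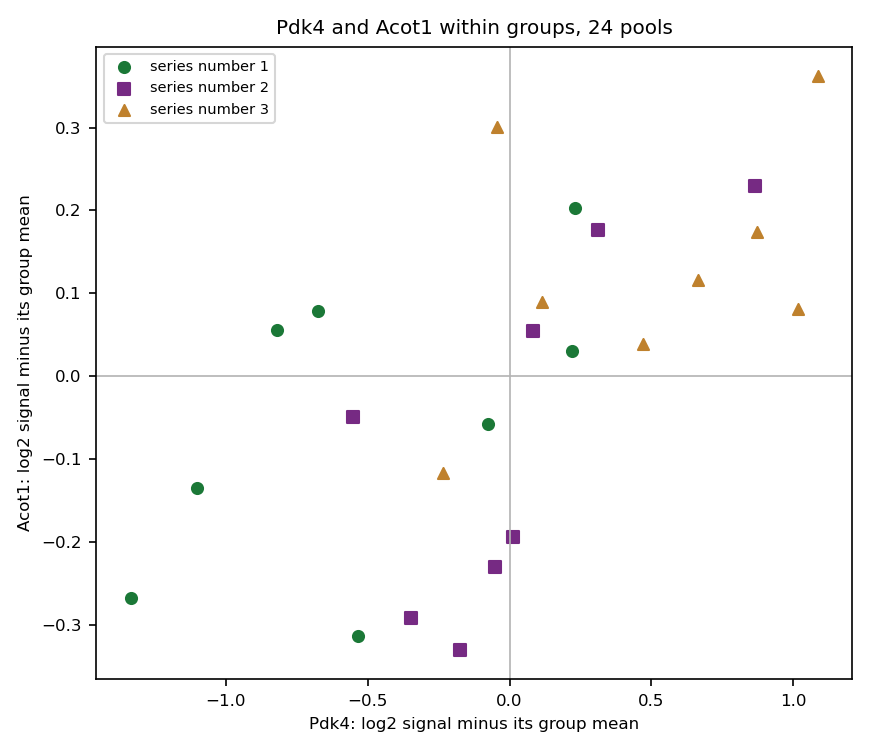
Log2 signal of Pdk4 (horizontal) and Acot1 (vertical) minus the group mean in 24 pools, with 1 symbol for each series number of the labels. Pools high for 1 gene tended to be high for the other, with r = 0.62, and r = 0.50 without the 2 pools farthest from the median of Pdk4.

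The Hyp mutation was the second factor. Of the 31 genes, 2 rose and 3 fell in Hyp pools, which is 16.1%, against 2.05% of all features (1.11% higher and 0.945% lower). Acaa2 and Bdh1 rose, and Hacl1, Cd36 and Acox2 fell. When arrays were scaled to a common median, the split was 3 rising and 2 falling, as Ppara passed the threshold and Acox2 did not. The median log2 difference of the list was -0.03, with 11 of 31 positive, against a median of 0.00 and 9197 of 18633 positive for all features. Hacl1 and Acox2, which rose with low phosphate, were the 2 of 4 peroxisomal genes that fell in Hyp.

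By the values given above, all 6 Hyp female pools, from 1221 to 1906, were below all 6 normal female pools, from 2044 to 3621. Hyp male pools ran from 507 to 730.0 and normal male pools from 578 to 1125, with overlap. In females, Hacl1 was the 1 member of 31 without overlap between genotypes, against 0.886% of all features. Hacl1 fell by 0.53 ± 0.07 in Hyp pools, or 1.44-fold (adjusted p = 3.8e-05). For Acox2 the lowest, median and highest of 12 Hyp pools were 1016, 1204 and 1526, and of 12 normal pools 1023, 1502 and 1769. The 2 sets of pools overlapped, mostly through Hyp pools on low phosphate and normal pools on the control diet. Acox2 fell by 0.24 ± 0.05 in Hyp pools, or 1.18-fold (adjusted p = 0.0108, and 0.0529 with arrays scaled to a common median).

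Cd36 encodes a membrane receptor for long-chain fatty acids. Cd36 in males on the control diet was 4111, 3815 and 3813 in normal pools and 2536, 2919.8 and 2370.2 in Hyp pools. Cd36 in males on low phosphate was 3882, 3900.4 and 3355 and 3116, 2361 and 2382. Every Hyp male pool was below every normal male pool. Cd36 in females on the control diet was 1204, 1163 and 1422 in normal pools and 1137, 1159.8 and 1195 in Hyp pools. Cd36 in females on low phosphate was 1532, 1451 and 1339 and 1437, 1288 and 1364. Female pools of the 2 genotypes overlapped. Cd36 fell by 0.32 ± 0.06 in Hyp pools, or 1.25-fold (adjusted p = 0.00317). The other probe sets of Cd36 differed by -0.41 and -0.38, with adjusted p-values of 0.00981 and 0.185 in a fit of all probe sets.

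Bdh1 encodes the mitochondrial dehydrogenase that interconverts acetoacetate and beta-hydroxybutyrate. Bdh1 in males on the control diet was 3661, 3159 and 3606 in normal pools and 5616, 4895 and 4896 in Hyp pools. Bdh1 in males on low phosphate was 3435, 4051 and 3276 and 4490.4, 4584 and 4201. Hyp male pools were all above normal male pools. Bdh1 in females on the control diet was 4555, 4814 and 5204 in normal pools and 5705, 5803 and 5269 in Hyp pools. Bdh1 in females on low phosphate was 5679, 5506 and 5075 and 5391, 5624 and 5524. On the control diet female pools were separate by genotype, and on low phosphate they overlapped. Bdh1 rose by 0.28 ± 0.05 in Hyp pools, or 1.21-fold (adjusted p = 0.00327). Among males, Bdh1 and Cd36 were the 2 of 31 genes without overlap between genotypes, against 1.23% of all features.

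Acaa2 encodes the thiolase of the last step of mitochondrial beta oxidation. Acaa2 in males on the control diet was 2430.2, 2677 and 2613 in normal pools and 3707, 3689 and 3672 in Hyp pools. Acaa2 in females on the control diet was 3679, 3574 and 3906 and 4262, 4745 and 4738. On the control diet the genotypes were separate in both sexes. Acaa2 in males on low phosphate was 2903, 3308 and 2634 in normal pools and 2990.4, 3555 and 3358 in Hyp pools. Acaa2 in females on low phosphate was 4451, 3930.5 and 4330.1 and 4022, 4156 and 4868. On low phosphate the genotypes overlapped in both sexes. Acaa2 rose by 0.26 ± 0.05 in Hyp pools, or 1.19-fold (adjusted p = 0.00864). Its other probe sets differed by 0.30 and 0.22, with adjusted p-values of 0.326 and 0.455 in a fit of all probe sets. The other 9 mitochondrial beta oxidation genes were not called for genotype and lay between -0.12 for Hadh, the short-chain hydroxyacyl dehydrogenase, and 0.12 for Eci1, an enoyl-CoA isomerase.

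The remaining genes were not called for genotype. Ppara differed by 0.36 ± 0.11 (adjusted p = 0.0973), and its adjusted p was 0.0386 with arrays scaled to a common median, 0.0328 with the series number as a block and 0.0479 with trended and robust variance. Pdk4 differed by 0.50 ± 0.28 (adjusted p = 0.583), with an interval of -0.09 to 1.09. Acot1 differed by -0.24 ± 0.09 (adjusted p = 0.305) and Acot2 by -0.17 ± 0.08 (adjusted p = 0.493). The carnitine genes Cpt1a, Cpt2 and Slc25a20 were at 0.09, -0.05 and -0.07. The electron transfer genes Etfa, Etfb and Etfdh were at -0.09, -0.13 and -0.05, and Oxct1 was at 0.05.

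Markers of proximal tubule segments moved with genotype. Of 6 markers of the S1 and S2 segments 3 fell and none rose, and of 6 markers of the S3 segment 4 rose and none fell. The S1 and S2 markers were Slc5a2, Slc5a12, Slc34a1, Slc22a6, Slc4a4 and Gatm. The S3 markers were Slc7a13, Slc22a7, Cyp7b1, Slc5a1, Slc22a19 and Slc22a13. Slc34a1 encodes a phosphate cotransporter, and whether these markers followed the size of a segment or were regulated themselves was not tested. Summed S1 and S2 signal ran from 33396 to 41038 in normal pools and from 25611 to 35600.3 in Hyp pools. Summed S3 signal ran from 14024 to 26902 in normal pools and from 12904 to 36371 in Hyp pools. The part of these segments in the genotype differences of Hacl1, Acox2, Cd36, Bdh1 and Acaa2 was not tested. Within males, summed S1 and S2 signal was 36817 to 41038 in normal and 29479 to 35600.3 in Hyp pools, and summed S3 signal was 20787 to 26902 and 29409.6 to 36371, both without overlap. Within females, summed S1 and S2 signal was 33396 to 38906 in normal and 25611 to 30714 in Hyp pools, without overlap, and summed S3 signal was 14024 to 15898 and 12904 to 17567, with overlap. With arrays scaled to a common median, 1 of the 6 S1 and S2 markers fell and the S3 count was the same. For diet, 1 of the 6 S1 and S2 markers rose and 1 fell, and none of the 6 S3 markers was called, with 3 at an unadjusted p below 0.05 in limma.

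The design asks whether the diet response differs between genotypes. For diet within normal pools 4 genes rose and none fell (12.9%, against 0.478% of all features). These were Angptl4 at 1.10 ± 0.22, Acot1 at 0.75 ± 0.13, Hacl1 at 0.63 ± 0.09 and Acox2 at 0.39 ± 0.07, with adjusted p-values of 0.0239, 0.00779, 0.00125 and 0.00934. The call of Angptl4 was lost without the filter and without any 1 of 6 normal pools (highest adjusted p = 0.0807), which were female control 1 and 2, female low phosphate 3, male control 2 and male low phosphate 2 and 3. Acot1, Acot2, Angptl4 and Acox2 had no overlap between the 6 low phosphate and 6 control pools of normal mice, against 0.521% of all features. For Acot2 this did not hold in its dimmer probe set. There the normal pools ran from 178.5 to 236.9 on control and from 116.1 to 271.8 on low phosphate. Within Hyp pools none of the 31 genes passed limma's test for diet, against 0.156% of all features, and 5 had an unadjusted p below 0.05. There the differences were 0.46 ± 0.22 for Angptl4, 0.30 ± 0.13 for Acot1, 0.26 ± 0.09 for Hacl1 and 0.33 ± 0.07 for Acox2.

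The difference between those responses was tested as an interaction. None of the 31 genes passed limma's test for genotype by diet, against 0.0161% of all features, and 4 had an unadjusted p below 0.05. The diet response in Hyp minus that in normal pools was -0.38 ± 0.13 for Hacl1 (95% interval -0.65 to -0.10, adjusted p = 0.783). It was -0.45 ± 0.19 for Acot1 (interval -0.84 to -0.06, adjusted p = 0.894) and -0.64 ± 0.31 for Angptl4 (interval -1.29 to 0.02, adjusted p = 0.938). Angptl4 was not among the 4, and the ketone gene Bdh1, at -0.22, was. For Acaa2 it was -0.31 ± 0.10 (interval -0.53 to -0.09, adjusted p = 0.77), where the diet difference was 0.19 in normal and -0.12 in Hyp pools. The interval for Acox2 was -0.27 to 0.15, for Slc27a1 -0.43 to 0.16 and for Ppara -0.10 to 0.77. A weaker diet response in Hyp was thus not established for any single gene, and the intervals are wide enough to hold both equal responses of Acox2, Slc27a1 and Ppara and sizeable differences.

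**Figure D4:**
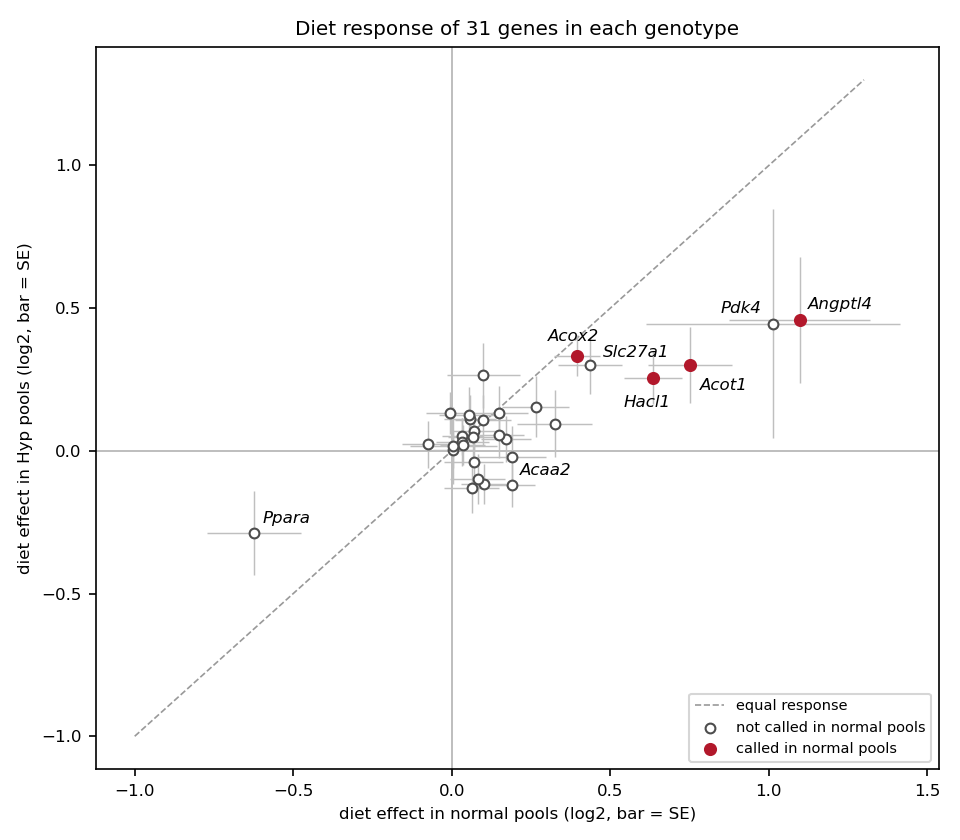
Log2 diet response of each of 31 genes in normal pools (horizontal) and in Hyp pools (vertical), with bars of 1 SE and a dashed line of equal response. Filled red points were called in normal pools. The 4 called genes lie below the dashed line, and none of the 31 genes was called for the interaction. These 4 were picked by their response in normal pools, so their place below the line is no test of a weaker response in Hyp.

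Within 1 diet, the genotype calls were fewer than over both diets. On the control diet Acaa2 rose by 0.41 ± 0.07 and Bdh1 by 0.38 ± 0.07 in Hyp pools (adjusted p = 0.00587 and 0.00789), 2 of 31 against 0.665% of all features. On low phosphate Hacl1 fell by 0.72 ± 0.09 (adjusted p = 0.000148), 1 of 31 against 0.789% of all features.

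Genotype within each sex gave 3 calls in males and 1 in females, against 1.12% and 0.687% of all features. In males Bdh1 rose by 0.44 ± 0.07 (adjusted p = 0.00166) and Cd36 fell by 0.55 ± 0.08 (adjusted p = 0.000731). Acaa2 rose by 0.34 ± 0.07 (adjusted p = 0.0198), a call lost without any 1 of 4 male pools (Hyp low phosphate 2 and 3, normal control 1 and normal low phosphate 3, highest adjusted p = 0.0706) and with arrays scaled to a common median. In females Hacl1 fell by 0.68 ± 0.09 (adjusted p = 0.000342), and in males it differed by -0.38 ± 0.09 (adjusted p = 0.0504). None of the 31 genes passed limma's test for genotype by sex, against 0.0805% of all features, and 7 had an unadjusted p below 0.05. The genotype effect in males minus that in females was -0.45 ± 0.12 for Cd36 (interval -0.70 to -0.21, adjusted p = 0.351). It was 0.45 ± 0.14 for Slc27a1 (interval 0.15 to 0.74, adjusted p = 0.558) and 0.32 ± 0.10 for Bdh1 (interval 0.11 to 0.53, adjusted p = 0.544).

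Diet within each sex gave 2 calls in males and none in females, against 0.338% and 0.225% of all features. In males Acox2 rose by 0.42 ± 0.07 (adjusted p = 0.00657) and Hacl1 by 0.45 ± 0.09 (adjusted p = 0.0318). The male call of Hacl1 was lost without any 1 of 9 of the 12 male pools (highest adjusted p = 0.110), all but normal control 3, Hyp control 2 and Hyp low phosphate 1. It was also lost with arrays scaled to a common median, quantile normalization or no filter (highest adjusted p = 0.0803). In females 15 of 31 genes, and 1410 of 18633 features, had an unadjusted p below 0.05 in limma. There, Hacl1 differed by 0.44 ± 0.09 (adjusted p = 0.0502), Acox2 by 0.30 ± 0.07 and Angptl4 by 1.00 ± 0.22 (adjusted p = 0.0694). Neither diet by sex nor genotype by diet by sex had a call in limma among the 31 genes or among all features (0% in both). Unadjusted p-values below 0.05 numbered 3 and 0 of the 31 genes, and 995 and 720 of all features.

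Sex gave the most calls. Of the 31 genes 7 were higher and 9 lower in males, which is 51.6%, against 16% of all features (6.1% higher and 9.89% lower). When arrays were scaled to a common median the split was 11 higher and 7 lower, and among all features it moved from 1137 higher and 1843 lower to 1675 and 973. Higher in males were Cd36, Angptl4, Acads, Cpt2, Etfdh, Plin2 and Slc27a2. Lower in males were Hacl1, Acaa2, Hadhb, Bdh1, Acaa1b, Slc27a1, Hadha, Acot1 and Acadm. Hacl1, Cd36 and Etfdh had no overlap between 12 male and 12 female pools, against 1.97% of all features. The median log2 difference of the list was -0.04, against -0.05 for all features.

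The lowest, median and highest signals of Hacl1 were 507, 690.4 and 1125 in males and 1221, 1975 and 3621 in females, so the highest male pool was below the lowest female pool. Hacl1 was 2.85-fold lower in males, a log2 difference of -1.51 ± 0.07 (adjusted p = 2.5e-13). For Cd36 they were 2361, 3235 and 4111 in males and 1137, 1314 and 1532 in females, again with no overlap. Cd36 was higher in males by 1.27 ± 0.06, or 2.42-fold (adjusted p = 8.2e-13). Both of its other probe sets were also higher in males, by 1.35 and 0.76.

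Fatty acid carriers split by sex. Slc27a2, a carrier and very-long-chain acyl-CoA synthetase, was higher in males by 0.20 ± 0.05 (adjusted p = 0.00286), and Slc27a1 was lower by 0.33 ± 0.07 (adjusted p = 0.0022). Another probe set of Slc27a1 differed by -0.10 for sex (adjusted p = 0.697) and by 0.30 for diet (adjusted p = 0.522) in a fit of all probe sets. Angptl4 was higher in males by 0.49 ± 0.16 (adjusted p = 0.0358), a call lost without any 1 of 12 pools (highest adjusted p = 0.0702) and without the filter (adjusted p = 0.0733). Those pools were normal female control 1 and 2 and low phosphate 1 and 2, Hyp female low phosphate 1, normal male control 1 and 3 and low phosphate 2 and 3, Hyp male control 3, and Hyp male low phosphate 1 and 2. Plin2 was higher by 0.23 ± 0.06 (adjusted p = 0.00998), and Acot1 was lower by 0.32 ± 0.09 (adjusted p = 0.0221), a call lost with arrays scaled to a common median.

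Mitochondrial beta oxidation genes went both ways, with 1 of 10 higher and 4 lower in males. The 1 that was higher was Acads, the short-chain acyl-CoA dehydrogenase. Acads in males was 1745, 1575 and 2038 in normal and 1803, 1613 and 1624 in Hyp pools on the control diet, and 1805, 1793 and 1898 in normal and 1515, 1406 and 1785 in Hyp pools on low phosphate. Acads in females was 1324, 1166 and 1303, then 1148, 1433 and 1244, then 1477, 1117 and 1480.4, then 1160.1, 1368 and 1354, in the same order of groups. All but 1 of the 12 male pools were above the highest female pool. Acads was higher in males by 0.40 ± 0.07, or 1.32-fold (adjusted p = 0.000141).

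Hadhb encodes the beta subunit of the trifunctional protein. Hadhb in males was 3931, 3947 and 4337 in normal and 4462, 3886 and 4108 in Hyp pools on the control diet, and 4108, 4082 and 3799.9 and 3986, 4022 and 4428 on low phosphate. Hadhb in females was 4363, 5016 and 5960.2 in normal and 4731, 5399 and 5634 in Hyp pools on the control diet, and 5740.5, 5149.8 and 6159 and 5449, 5729 and 5643 on low phosphate. Of the male pools 10 of 12 were below the lowest female pool. Hadhb was lower in males by 0.40 ± 0.06, or 1.32-fold (adjusted p = 2.3e-05), and Hadha, the alpha subunit, by 0.33 ± 0.07 (adjusted p = 0.00155). Of the other probe sets of Hadhb, 1 differed by -0.15 and a dimmer one by 0.10, neither called (adjusted p = 0.45 and 0.879 in a fit of all probe sets). Acaa2 was lower in males by 0.44 ± 0.05 (1.36-fold, adjusted p = 2.6e-06), with 9 of 12 male pools below the lowest female pool. Its other probe sets, both above the median on all 24 arrays, differed by -0.37 (adjusted p = 0.0104) and by -0.03 (adjusted p = 0.913) in a fit of all probe sets. Acadm, the medium-chain dehydrogenase, was lower by 0.32 ± 0.05 (adjusted p = 7.4e-05). Acadl, Acadvl, Hadh, Eci1 and Decr1 were not called, at 0.15, -0.11, 0.12, -0.18 and 0.07.

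Downstream and peripheral steps were also mixed. Etfdh, the dehydrogenase that hands electrons to ubiquinone, was higher in males by 0.27 ± 0.04 (adjusted p = 0.000207). Etfdh signal in male pools ran from 2119.7 to 2489 and in female pools from 1668 to 2032, without overlap. Cpt2 was higher by 0.39 ± 0.08 (adjusted p = 0.00104), though a dim probe set of Cpt2 differed by -0.25 and was not called (adjusted p = 0.238). Bdh1 was lower by 0.38 ± 0.05 (adjusted p = 1.1e-05), and Acaa1b was lower by 0.38 ± 0.10 (adjusted p = 0.00898), the latter a call lost with arrays scaled to a common median. Acaa1b has a near-identical paralog, Acaa1a, and the 2 probe sets shared by them differed by -0.21 and -0.13. Neither was called (adjusted p = 0.188 and 0.322 in a fit of all probe sets). Ppara, Acot2, Acox2, Ehhadh, Oxct1, Pdk4, Cpt1a, Slc25a20, Etfa and Etfb were not called for sex, with log2 differences from -0.31 for Pdk4 to 0.17 for Etfa.

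**Figure D5:**
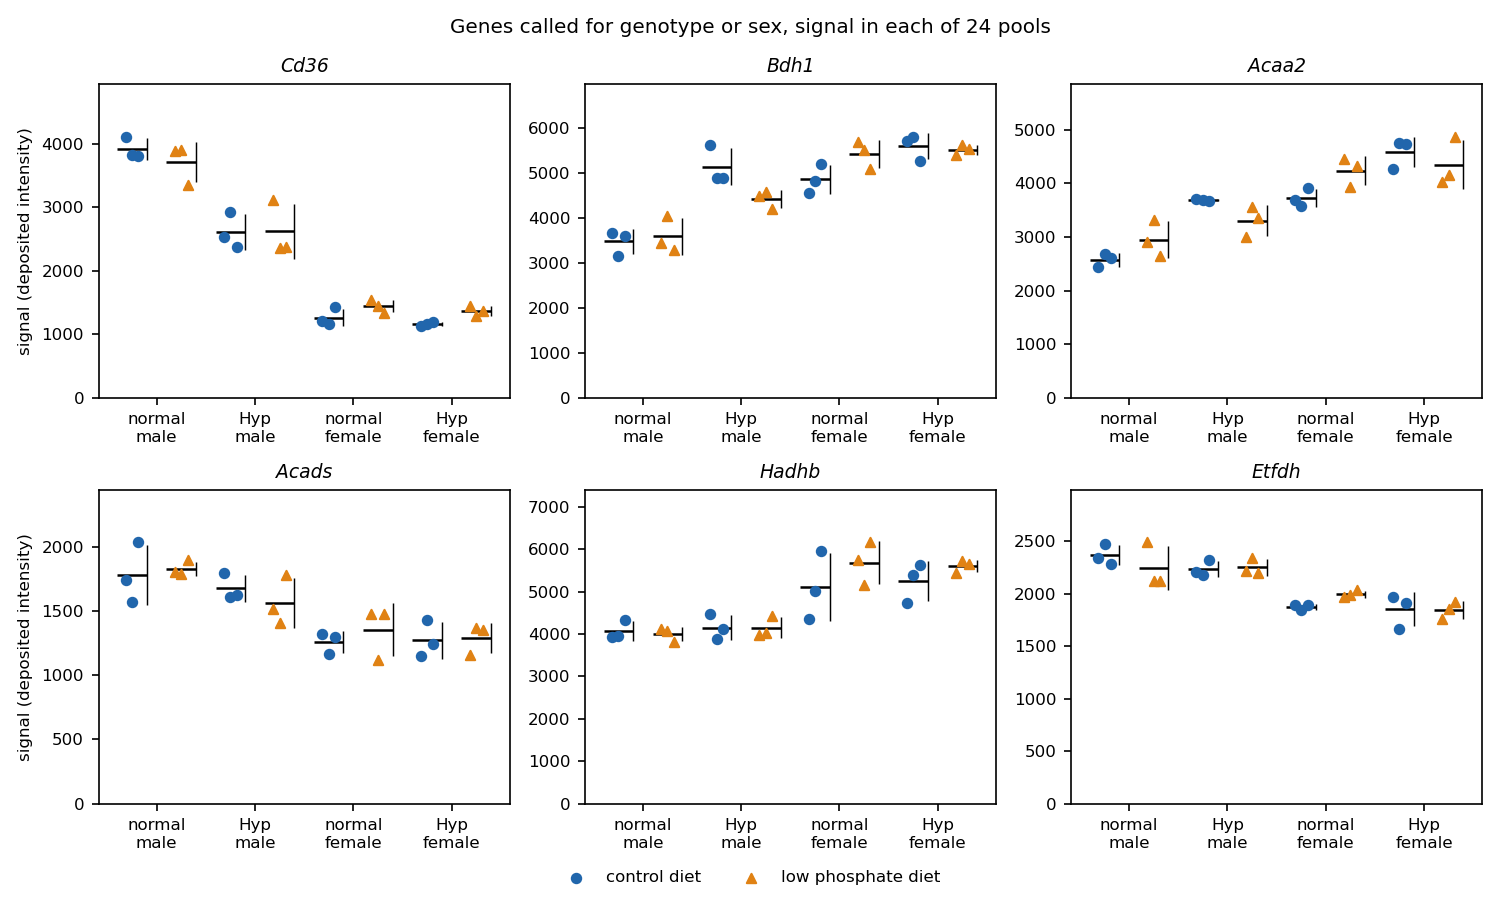
Deposited signal (linear axis from 0) of Cd36, Bdh1, Acaa2, Acads, Hadhb and Etfdh in each of 24 pools, by genotype and sex, with circles for the control diet and triangles for low phosphate. Horizontal lines are means and vertical lines are SDs of 3 pools. Cd36 is higher in males than in females, and higher in normal than in Hyp males, without overlap.

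Markers of other cell types moved with sex. Both measured markers of white fat (2 of 7 listed), Adipoq and Retn, were lower in males, with a summed signal of 322 to 603 in males and 465.5 to 823 in females. Of 6 endothelial markers 3 were lower in males, with a sum of 2652 to 3578 in males and 3561 to 4096 in females. Of 6 macrophage markers 2 were lower in males, with sums of 3680.1 to 5535 and 3820.0 to 5221. Cd36 is also expressed in fat, endothelium and macrophages. The part of these cell types in the sex differences was not tested. Of the markers of brown fat, adrenal and skeletal muscle, 1 of 4, 3 of 5 and 1 of 5 were measured, and none was called for diet, genotype or sex. Of the S3 markers 2 were higher and 3 lower in males, and of the S1 and S2 markers 2 were higher and 1 lower.

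Other genes of the pathway were described by 5 further lists. For diet, 1 of 75 measured genes was called, a share near that of all features (0.767%). This was Mgll, the monoglyceride lipase of the uptake and lipolysis list, with 450.0 to 1051 on control and 444 to 1386 on low phosphate, a rise of 0.33 ± 0.08 (adjusted p = 0.049) that was not called with arrays scaled to a common median or quantile normalized. None of 19 further mitochondrial, 21 peroxisomal, 3 ketone and 22 PPAR-related genes passed limma's test for diet, and 8, 7, 1 and 5 of them had an unadjusted p below 0.05. With quantile normalization, 1 of the 21 peroxisomal genes was called lower on low phosphate. The medians of the 5 lists for diet lay between -0.09 and 0.10.

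For genotype, 3 of the 19 mitochondrial genes fell and none rose, where 1.11% of all features were higher and 0.945% lower in Hyp pools. They were the medium-chain acyl-CoA synthetases Acsm2, by 0.38 ± 0.06, Acsm1, by 0.36 ± 0.07, and Acsm5, by 0.35 ± 0.09 (adjusted p = 0.000906, 0.00904 and 0.0404). Of 21 peroxisomal genes 2 fell, Ephx2, the soluble epoxide hydrolase, by 0.30 ± 0.06 and Phyh, the phytanoyl-CoA hydroxylase that acts before Hacl1 in alpha oxidation, by 0.17 ± 0.04 (adjusted p = 0.00495 and 0.0467), and 1 of 21 fell with arrays scaled to a common median. Of 22 PPAR-related genes 1 was called higher and 3 lower. The higher one, Fabp1, the liver fatty acid binding protein, had signals of 10.8 to 168 in normal and 96.2 to 642 in Hyp pools. It passed the filter on dim probe sets through the Hyp pools, so its size and p are not given. Fabp3 fell by 0.50 ± 0.08 and Pdk2 by 0.31 ± 0.07 (adjusted p = 0.000908 and 0.0222), and the third, Lpin1, which was named after its value was seen, by 0.29 ± 0.07 (adjusted p = 0.0478). Acsl4 rose by 0.46 ± 0.11 (adjusted p = 0.0309), 1 of 10 genes of uptake and lipolysis.

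For sex, 12 of 21 peroxisomal genes were higher and 3 lower in males, where 6.1% of all features were higher and 9.89% lower. With arrays scaled to a common median, 13 were higher and 2 lower, and the split of all features turned as given above. Crot, the carnitine octanoyltransferase that exports shortened chains, was higher by 1.35 ± 0.05, the racemase Amacr by 1.64 ± 0.07 and Ephx2 by 1.21 ± 0.06 (adjusted p = 2.3e-14, 1.1e-13 and 1.4e-12). Of the mitochondrial genes 9 of 19 were higher and 2 lower, and 10 and 2 with that scaling. Acsm3 signal was 5406 to 7759 in males and 15.7 to 97.1 in females, below every array median, so it passed the filter through the male pools alone and no size or p is given. Acsm3 is among the 9 counted as higher, so that count rests in part on the filter. Acsm2 was higher by 1.16 ± 0.06 and Ivd, of leucine breakdown, by 0.53 ± 0.05 (adjusted p = 8.2e-12 and 2.6e-07). The PPAR-related list had 5 higher and 2 lower, with Cyp4a14, a fatty acid omega hydroxylase, lower by 2.42 ± 0.10 and Me1 higher by 1.14 ± 0.05 (adjusted p = 1.5e-13 and 1.2e-12), and 6 and 2 with that scaling. Cyp4a12a signal was 20.5 to 136 in females, below every array median, and 559.7 to 1626 in males, and no size or p is given for the same reason. Cyp4a12a is likewise among the 5 counted as higher. Acat1 and Bdh2 of the ketone list were higher, by 0.77 ± 0.05 and 0.45 ± 0.06 (adjusted p = 3.4e-10 and 2.8e-05). Mgll, Fabp5 and Fabp4 were lower in males, by 0.79 ± 0.08, 0.66 ± 0.09 and 0.37 ± 0.10 (adjusted p = 1.3e-07, 2.9e-05 and 0.00941), and none of the 10 genes of uptake and lipolysis was called higher (2 were lower with that scaling).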

How the data were processed

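Kidney RNA pools were measured on Affymetrix 430A and 430B arrays. The deposited signal intensity came from GCOS 1.2, per the submitters' processing notes, while the sources used here do not name an expression algorithm or scaling target. The trimmed mean of the 100 probe sets on both chips was 1200 on every array, so the arrays were already scaled. Gene symbols came from the platform annotation, in which 35041 of 45137 probe sets that are not controls had 1 symbol, 936 several and 9160 none. Symbols were updated by Entrez identifier for 34837 probe sets.

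Values below 1 were set to 1, and log2 values were fitted with limma 3.58.1 (lmFit, eBayes) in R 4.3.3, with 8 group means and each chip separately. Features above the array median on at least 3 of 24 arrays were kept. Benjamini-Hochberg adjustment ran over both chips together. The fit was tested on simulated data. The members and lists were chosen with earlier results of these data known. All members are named. Of the 5 other lists, at most 3 called genes with the smallest adjusted p per contrast are named. Pool values are given for members called for genotype or diet and for the 6 largest sex differences. Alternatives were scaling, pseudocount, filter, probe set choice, adjustment within chip, replicate block, variance trend and each pool left out. Promoter windows were searched in Python 3.11.15. Where nothing says how mice were assigned to pools, p-values measure the spread between these pools.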

Additional observations from a re-analysis of the deposited data

How the results depend on the processing

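Over all alternatives, the number of the 31 genes called was 5 to 6 for genotype, 5 to 6 for diet and 15 to 19 for sex, and 0 for all 4 interactions. Counts within 1 sex, diet or genotype moved more, and the cause was not tested. For diet in males, 2 genes were called, and 1 with arrays scaled to a common median, quantile normalization or no filter, and 1 to 2 without single pools. For diet in females, 0 were called, and 2 with a pseudocount of 50, a filter of at least 12 arrays, adjustment within each chip, or trended and robust variance, and 0 to 1 without single pools. For diet in Hyp pools, 0 were called, and 1 with trended and robust variance. For genotype on low phosphate, 1 was called, and 1 to 2 without single pools. The labels do not say what the series number of a pool stands for. Pools of the same number correlated at r = -0.05 to 0.09 after subtraction of group means, no pair was above 0.1, and 17 of 24 pools correlated best with a pool of their own number. The median r was 0.02, 0.02 and 0.05 within numbers 1, 2 and 3, and -0.01 between pools of different number and group. Pools of the same number were thus slightly more alike, and the reason was not tested. With that number as a replicate block, 6 genes were called for genotype, 6 for diet and 18 for sex, and 2 each for diet in females and genotype on low phosphate. Calls over all features then numbered 445 for genotype, 184 for diet and 3296 for sex, against 382, 143 and 2980. The correlation of Pdk4 with Acot1 fell to r = 0.57 with the block and to 0.50 without the 2 farthest pools, and lost its call in both. For sex, other, dimmer probe sets turned the sign, to -0.24 for Angptl4, -0.25 for Cpt2 and 0.10 for Hadhb, none called. Of 93 single differences (31 genes, 3 main contrasts), 27 were called, and among the uncalled 11 turned sign under another setting and 12 without 1 pool.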
